A study of Mus musculus with 2 samples.

Results

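The tumour suppressor p53, its relatives p63 and p73, its inhibitors Mdm2 and Mdm4 and 5 of its direct target genes were examined in the embryonic mouse kidney. These 10 genes (Trp53, Trp63, Trp73, Mdm2, Mdm4, Cdkn1a, Sesn1, Sesn2, Zmat3 and Eda2r) were taken by name from 43346 mouse genes in the deposited tables, and all 10 were found. Total RNA had been measured in 1 group, embryonic kidney, with 2 biological replicate libraries of healthy B6NCrl mice at embryonic day 15.5. Each library came from pooled kidneys of male and female embryos, 78 embryos for replicate 1 and 62 for replicate 2, with 10 ng of RNA as input. The design holds no treatment, no genotype and no second tissue, so levels, the order of levels and transcript use within the kidney are described. Levels are TPM, a relative abundance per transcript length, and a gene counts as detected where both libraries reached 1 TPM.

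As background, p53 is a transcription factor that is made continuously and kept scarce by Mdm2, a ubiquitin ligase that marks it for destruction, while Mdm4 binds p53 and blocks its activation domain. Damage and other stresses release p53, which then binds paired decamers in DNA and raises genes for cell cycle arrest, cell death, repair and metabolism, Mdm2 among them, so that the pathway feeds back on itself. In the mouse kidney, loss of Mdm2 from the ureteric bud or from nephron progenitors is known to impair organ growth through excess p53. Only RNA was measured here, not the amount or activity of the p53 protein.

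The DNA element through which p53 binds its targets is shown first. Its consensus is a pair of half-sites, each of 3 purines, a C, 2 bases that are A or T, a G and 3 pyrimidines. A search of both strands for 2 adjoining half-sites, with no gap, both C and G bases intact in each and at most 1 mismatch, was run on RefSeq promoters (GRCm38.p6) from 250 bases before to 50 bases after a gene's start. RefSeq promoters were matched for 8 of the 10 genes (12 promoters; Trp63 and Zmat3 had no match), and 1 of them held the element, upstream of Cdkn1a. Among 54 further p53 targets, 42 were matched with 55 promoters, and 3 promoters held it. Of all 32851 mouse promoters of this length, 22 held it (0.067%). The 250 bases before both RefSeq starts of Cdkn1a are shown because they lie before the transcripts compared below, at chr17:29090729-29090978 and chr17:29093519-29093768 (GRCm38, plus strand). Capitals mark the element, at chr17:29090928-29090947, from -51 to -32 relative to the upstream start.
Cdkn1a upstream start: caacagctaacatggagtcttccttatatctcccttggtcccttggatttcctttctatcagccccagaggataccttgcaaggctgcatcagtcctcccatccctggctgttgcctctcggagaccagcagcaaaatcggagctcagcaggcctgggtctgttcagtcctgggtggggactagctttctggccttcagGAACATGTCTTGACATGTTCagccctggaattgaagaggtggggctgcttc
Cdkn1a downstream start: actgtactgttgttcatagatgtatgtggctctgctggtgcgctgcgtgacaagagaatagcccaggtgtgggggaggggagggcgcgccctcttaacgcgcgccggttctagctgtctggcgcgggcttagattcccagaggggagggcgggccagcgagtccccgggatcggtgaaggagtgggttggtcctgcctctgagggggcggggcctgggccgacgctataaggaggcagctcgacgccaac
The elements of the 3 other target promoters, in which all 20 bases are the element, were at chr11:40755462-40755481 on the minus strand for Ccng1, chr9:66946296-66946315 on the plus strand for Rps27l and chr15:85859945-85859964 on the plus strand for Gtse1.
Ccng1: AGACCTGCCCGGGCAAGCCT
Rps27l: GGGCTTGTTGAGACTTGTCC
Gtse1: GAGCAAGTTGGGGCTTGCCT
With up to 2 mismatches, which 107 of the 32851 promoters held (0.326%), Trp73 was added among the 10 genes, at chr4:154097220-154097239 on the minus strand, from -66 to -47 relative to its downstream start, and Ckap2 among the further targets. Intronic matches are shown for 2 of the quantified transcripts, of genes whose introns p53 is known to bind. They were chosen after their values or sequences were seen, so the background shares given below are no test of them. An element with 0 mismatches lay at chr3:32364331-32364350 (minus strand) in the retained-intron transcript Zmat3-204, within intron 1 of Zmat3-201 and 1328 nt after its start. The limit was widened to 3 mismatches for Mdm2 alone, and such a match lay at chr10:117710105-117710124 (minus strand) in Mdm2-207, within intron 1 of Mdm2-201 and 634 nt after its start.
Zmat3-204: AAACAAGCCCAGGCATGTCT
Mdm2-207: GGTCAAGTTGGGACACGTCC
Among 733155 windows of 300 bases tiled over all GENCODE M21 transcripts, 0.00191% held a match with 0 mismatches and 1.2% one with up to 3, so the Mdm2 match on its own is common. Zmat3-204 is 3813 nt long, so a share per 300 bases understates how often a model of its length would hold a match. The windows are also of transcripts and not of introns as such. A match describes letters only, and binding was not measured.

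Trp53 was the most abundant of the 10 genes and Trp73 the least. The 10 genes spanned levels of 151 TPM for Trp53 and 0.22 TPM for Trp73, and 8 of 10 were detected, against 62.3% of all protein-coding genes. The median of detected protein-coding genes was 19.5 TPM, which Trp53, Cdkn1a, Mdm2, Sesn1 and Mdm4 exceeded. Library totals were 36244861 and 39415002 expected counts for replicates 1 and 2. With 2 libraries of 1 group no p was computed. Replicate error was instead the size of the log2 TPM ratio between libraries that 95% of detected genes of like abundance stayed under (the 95th percentile), which was 0.92 at 1 to 3 TPM, 0.79 at 3 to 10, 0.37 at 10 to 30, 0.27 at 30 to 100 and 0.25 from 100 TPM up. Genes were called different in level where log2(TPM + 1) differed in the same direction by more than this limit in both libraries. Such a call sets a difference between genes against the spread of single genes between libraries. Errors of a gene's value that both libraries share, such as those of its length or transcript models, are not covered. A call is therefore no test of a difference in true abundance. The limit comes from TPM ratios without the added 1, so differences between genes near or below 1 TPM are compressed against it.

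**Figure D1:**
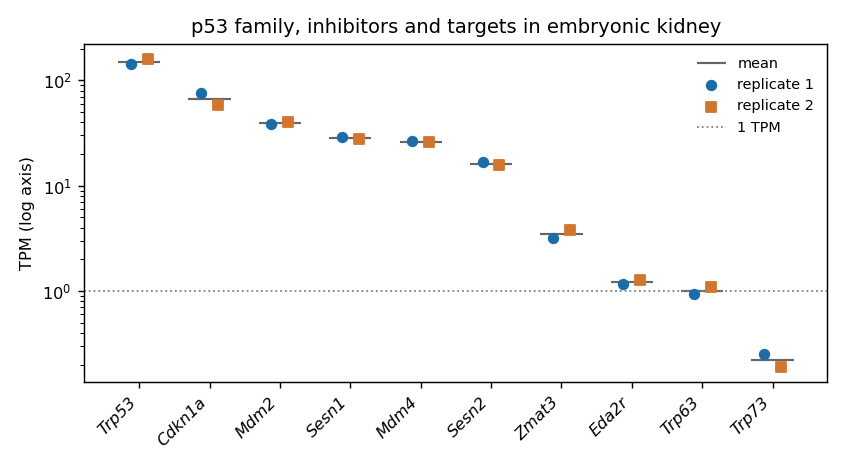
TPM of the 10 genes (log axis) in the replicate 1 library (circles) and the replicate 2 library (squares), with their mean as a bar and 1 TPM as a dotted line. Trp53 stands highest at 144 and 159 TPM, and Trp63 and Trp73 lie at or under about 1 TPM.

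Of the transcription factors, Trp53 (ENSMUSG00000059552.9, chr11:69580359-69591873 on mm10, plus strand) had 144 TPM in replicate 1 and 159 TPM in replicate 2, from 6002 and 7070 expected counts. Both libraries were high, and the mean of 151 ± 10.4 TPM (SD, n = 2) exceeded 92.8% of detected protein-coding genes. The log2 TPM ratio of replicate 2 over replicate 1, 0.14, was within the limit of 0.25. The ratio of counts per library total, 1.08 with an exact Clopper-Pearson 95% interval of 1.05 to 1.12, was beyond counting error. Trp63 (ENSMUSG00000022510.10, chr16:25683763-25892102, plus strand), a regulator of stratified epithelia, had 0.93 and 1.09 TPM, from 79 and 95 counts. Trp73 (ENSMUSG00000029026.12, chr4:154056253-154140208, minus strand), known for its part in multiciliated cells and neurons, had 0.25 and 0.19 TPM, from 30 and 23 counts. Neither reached 1 TPM in both libraries. The log2(TPM + 1) of Trp53 was above that of Trp63 by 6.24 ± 0.017 and above that of Trp73 by 6.96 ± 0.15 (SD, n = 2), both beyond replicate error. The difference between Trp63 and Trp73, 0.72 ± 0.13, was under the limit of 0.92. Because of the added 1, a gene near 1 TPM could hardly pass it, so this outcome does not show like levels.

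Markers of cell types in which p63 and p73 are known to act were measured beside them. Of 12 markers of urothelium and squamous epithelium, 9 were detected, with summed levels of 67.5 and 86 TPM in replicates 1 and 2. Upk3a, a uroplakin of the urothelial surface, led at 21.1 ± 0.99 TPM, followed by Perp, a desmosomal protein, at 14.6 ± 0.7 TPM and the keratin Krt10 at 9.28 ± 2.59 TPM. The 3 not detected were Krt6a at 0.51 and 3.08 TPM, Upk2 at 0.63 and 2.6 TPM and Dsg3, a desmoglein, at 0.04 and 0.05 TPM. Of 8 markers of multiciliated cells, 3 were detected (Tekt1, Foxj1 and Rsph1, at 4.5 ± 0.078, 2.35 ± 0.014 and 1.82 ± 0.19 TPM), with sums of 9.04 and 9.49 TPM. The regulators Mcidas and Gmnc, which start the multiciliated programme, had 0.02 TPM or less in each library, and Ccno, Dnah5 and Dnah9 were below 0.5 TPM. In whole organs, few cells of a type and little RNA per cell cannot be told apart.

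Trp53 RNA was almost wholly protein-coding, at 97.4% and 96.7% of its transcripts in replicates 1 and 2. Trp53-201, which encodes 387 residues, and Trp53-203, which adds 3 residues at the start, are 1772 and 1771 nt long. Their deposited shares were 80% and 79.6% for Trp53-201 and 2.8% and 3.63% for Trp53-203. The deposited posterior means, another estimate by the same quantifier, instead gave 45.1% and 39.2% for Trp53-201 and 37% and 43.8% for Trp53-203. Only their sum was stable between estimates, at 82.8% and 83.2% in the main column and 82% and 83% by the posterior mean. Trp53-206, with another start of the protein, was at 0 in both libraries.

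Trp53-202, the alternatively spliced form whose protein ends differently, held 14.6% and 13.5% of the transcripts in replicates 1 and 2, or 21 and 21.3 TPM from 885 and 969 expected counts. By the posterior mean its share was 14% and 12.6%, so it was resolved by either estimate. Its translation shares the first 361 residues with Trp53-201 and then has 17 of its own in place of 26. The regular tail of p53 carries lysines that are modified by ubiquitin and acetyl groups, and the spliced form is known to lack it. The coding ends of both are shown because they are the only difference between these proteins. Lower case gives the last 30 shared bases and capitals the bases from the exon junction on, where the forms use different exons (the first capital happens to be the same letter in both), read from GENCODE M21 transcripts across chr11:69590733-69591428 for Trp53-201 and chr11:69590733-69591305 for Trp53-202 (mm10, plus strand, introns left out).
Trp53-201 coding end: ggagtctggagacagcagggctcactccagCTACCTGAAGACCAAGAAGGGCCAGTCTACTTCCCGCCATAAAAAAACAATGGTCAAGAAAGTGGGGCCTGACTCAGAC
Trp53-202 coding end: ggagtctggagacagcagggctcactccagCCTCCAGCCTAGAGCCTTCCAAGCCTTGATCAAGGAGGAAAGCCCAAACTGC

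Transcript use of Trp63 and Trp73 was not settled at this depth. Trp63 transcripts from the upstream start, which give the TA forms with a full activation domain, held 53.3% and 24.2% in replicates 1 and 2, and those from the start 118153 nt downstream, which give the shorter ΔN forms of basal epithelium, held 46.7% and 75.8%. The leading Trp63 transcript was Trp63-201 in replicate 1 (30.6%, and 0% in replicate 2) and Trp63-205 in replicate 2 (53.6%, and 0% in replicate 1), proteins of 586 and 582 residues from the ΔN start. Trp63-208, a TA form of 680 residues, held 24.7% and 0%. The 2 shortest of the named Trp63 forms were Trp63-206 (TA start) at 28.6% and 24.2% and Trp63-204 (ΔN start) at 16% and 15.1%. Their shares rested on only 11 and 11.7 counts for Trp63-206 and 5.98 and 7.09 for Trp63-204. Trp63-202 and Trp63-207 were at 0 in both. For Trp73, all 30 counts of replicate 1 were assigned to Trp73-204 from the TA start, and all 23 counts of replicate 2 to Trp73-205 from a start 43035 nt downstream, with the remaining Trp73 transcripts at 0. The posterior means spread the Trp73 reads over every start, with 28.1% and 14.5% at the TA start.

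Of the inhibitors, Mdm2 was the more abundant. Mdm2 (ENSMUSG00000020184.10, chr10:117688875-117710758, minus strand), the ubiquitin ligase for p53, had 38.9 and 40.2 TPM in replicates 1 and 2, from 2494 and 2654 counts. Mdm4 (ENSMUSG00000054387.9, chr1:132959484-133030561, minus strand), its relative with little ligase activity of its own, had 26.4 and 26.1 TPM, from 2231 and 2413 counts. The libraries of each gene lay close together, and Mdm2 and Mdm4 did not overlap. Log2(TPM + 1) of Mdm2 exceeded that of Mdm4 by 0.57 ± 0.043, beyond the limit of 0.37. Trp53 exceeded Mdm2 by 1.91 ± 0.064 and Mdm4 by 2.48 ± 0.11 on the same scale, both beyond replicate error. Ppm1d, the phosphatase that reverses damage signalling to p53 and is itself a target, was 1.25 ± 0.094 below Mdm2 at a mean of 16.1 TPM.

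Both inhibitors carried transcripts annotated as not coding. For Mdm2, Mdm2-201 (489 residues) led with 79.6% and 74% in replicates 1 and 2, and non-coding classes held 17.4% and 22.5%, mostly retained introns at 12.4% and 14.6%. The mean of 20% not coding exceeded 61.3% of 7708 detected coding genes that have such transcripts, whose median was 12.9%. The non-coding models are short, and by reads coding models held 94.2% and 92.5% of Mdm2 counts and retained introns 4.98% and 5.84%. Mdm2-202, whose protein lacks the first 49 residues, held 3.03% and 3.42%. Transcripts that start shortly after the intron 1 match shown above, Mdm2-206 and Mdm2-209 (27 and 83 nt after it), held 1.25% and 2.48% together, and 4.16% and 6.22% by the posterior mean. Mdm2-207, which contains the match, held 3.28% and 4.96%. The p53-responsive start of Mdm2 is known to lie in this intron. Because reads from the common downstream exons cannot be placed at a start, the shares of these models are not a measure of that start's use.

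For Mdm4, the full coding transcript Mdm4-210 (489 residues) led with 42.1% and 42.7%, and the non-coding classes held 39.2% and 50.3%. That mean, 44.7%, exceeded 84% of the 7708 genes. Retained-intron models made up 36.1% and 40.1% of Mdm4 transcripts, with Mdm4-211 at 12.7% and 10.1%, Mdm4-205 at 10.4% and 11.5% and Mdm4-204 at 9.43% and 11.8%. These models are short, and by reads the picture differed, since retained-intron models held 10.3% and 11% of Mdm4 counts and Mdm4-210 held 85.4% and 85.3%. Mdm4-213, a model of 110 residues from a start upstream of the rest, held 18.2% and 6.73% on 43.2 and 17.1 counts. Models marked for nonsense-mediated decay held 3.11% and 2.69%; among them Mdm4-203 held 2.85% and 2.21%. Among pseudogenes, Trp53-ps had 0 counts in both libraries, Mdm4-ps had 0 and 1.05, and Gm29257, a processed pseudogene opposite Mdm4, had 12.4 and 17.1.

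**Figure D2:**
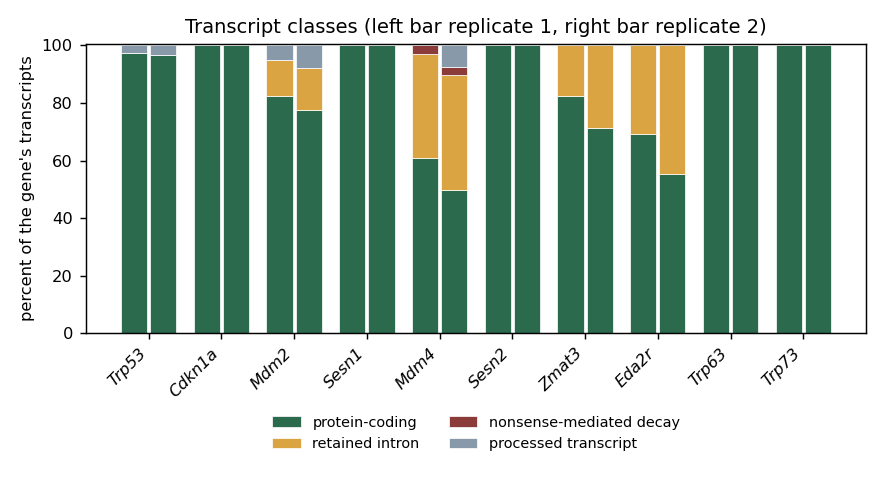
Percent of each gene's transcripts by annotated class, with the replicate 1 library as the left bar and the replicate 2 library as the right bar of each gene. Cdkn1a, Sesn1, Sesn2 and Trp63 have only protein-coding models in the annotation, so their bars could not differ. Trp73 has a nonsense-mediated decay model, which held 0% here and 6.89% and 6.65% by the posterior mean. Non-coding classes held shares of Mdm4 (39.2% and 50.3%), Eda2r (30.6% and 44.7%), Zmat3 (17.5% and 28.6%) and Mdm2 (17.4% and 22.5%).

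Of the targets, Cdkn1a was the most abundant, and it was the only one of the 8 detected genes whose libraries differed beyond replicate error. Cdkn1a (ENSMUSG00000023067.9, chr17:29090976-29100727, plus strand), which encodes the p21 inhibitor of cyclin-dependent kinases, had 75.2 TPM in replicate 1 and 58.5 TPM in replicate 2, from 1765 and 1520 counts. Replicate 1 was the higher, and the log2 ratio of replicate 2 over replicate 1 was -0.36 against a limit of 0.27. The ratio of counts per library total was 0.792 with an exact Clopper-Pearson 95% interval of 0.739 to 0.849, which covers counting error only. Of all 15108 detected genes, 757 (5.01%) differed beyond their limit, which is what the 95th percentile sets, and 1 of 8 is read against that share. The Cdkn1a difference was under a 1.5-fold ratio.

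**Figure D3:**
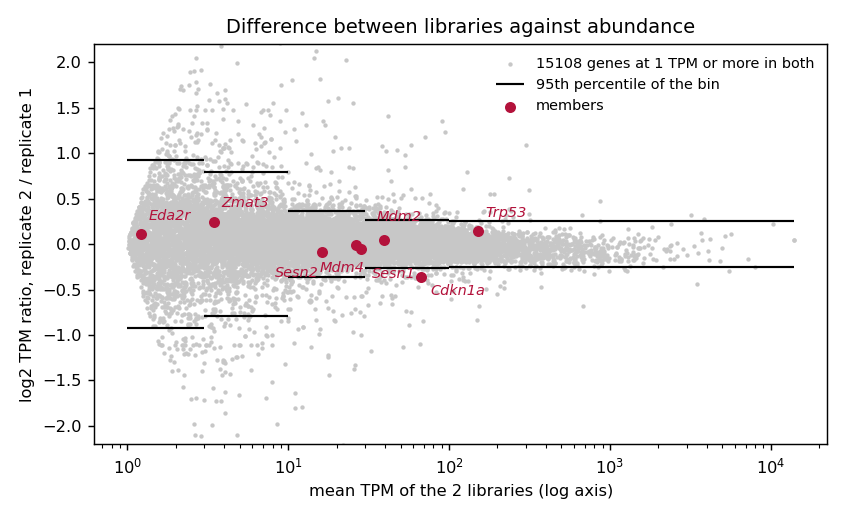
Log2 TPM ratio of replicate 2 over replicate 1 against mean TPM (log axis) for the 15108 detected genes (grey) and the 8 detected members of the set (red), with the 95th percentile of each abundance bin in black. Cdkn1a lies below its lower limit at -0.36, the other 7 lie inside theirs, and 23 genes fall outside the plotted range.

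Markers of other tissues also differed between the pools. All 8 markers of adrenal and sympathetic tissue were higher in replicate 2 and beyond replicate error, with sums of 50 and 193 TPM in replicates 1 and 2, and the steroid enzymes Cyp11a1, Cyp21a1 and Hsd3b1 led. None of the 8 was at 0 in either library. All 7 skeletal muscle markers were higher in replicate 1 and beyond error, with sums of 388 and 215 TPM, led by Acta1, Mylpf and Tnnt3, and none was at 0. Of the urothelial and squamous markers, 10 of 12 were higher in replicate 2, and Perp, also a listed p53 target, and Krt10 were higher in replicate 1. Only 2 were beyond error, Krt15 at 4.11 and 12.1 TPM and Upk1b at 4.13 and 8.54 TPM. The share of all detected genes that were higher in replicate 2 was not computed, so the count of 10 has no background beside it. All 16 kidney markers were detected, with sums of 829 and 808 TPM; Calb1, Cited1 and Wt1 led at 133 ± 17, 126 ± 2.33 and 104 ± 1.59 TPM, and 1 of them, Calb1, differed beyond error. The part of these tissues in the Cdkn1a difference was not tested.

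The Cdkn1a transcripts did not all differ in the same direction between the libraries. Cdkn1a-202, whose start lies just after the element shown above, had 46.9 and 29.7 TPM in replicates 1 and 2, or 62.4% and 50.7% of the gene. Cdkn1a-201, which starts 2790 nt further on, had 19.2 and 15.7 TPM, or 25.5% and 26.8%. Cdkn1a-203, which starts 6921 nt after the first, had 9.08 and 13.2 TPM, or 12.1% and 22.5%. The 3 encode the same 159 residues. The share of Cdkn1a-202 differed by 11.7 percentage points, against a 95th percentile of 10.3 points for leading transcripts of genes at 30 to 100 TPM. The log2 ratios of replicate 2 over replicate 1 were -0.66 for Cdkn1a-202, -0.29 for Cdkn1a-201 and 0.54 for Cdkn1a-203. No replicate error was computed for the levels of single transcripts, so these ratios and their directions were not set against a limit.

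The order of the Cdkn1a transcripts depended on length. By reads, Cdkn1a-201 held 48.2% and 49.3% of the gene's counts and Cdkn1a-202 held 42.2% and 33.4%, since the deposited lengths are 1910 nt for the first and 748 nt for the second. In M21 the same identifiers have 1913 and 922 nt, and Cdkn1a-202 ends 1021 nt and Cdkn1a-203 1145 nt before Cdkn1a-201. The models thus differ at both ends, and their shares do not measure the use of a start alone. The M21 starts of Cdkn1a-201 and Cdkn1a-202 are the RefSeq starts to the base. Cdkn1a-203 is 857 nt long as deposited and 1172 nt in M21, and no RefSeq start was matched to it. The start given for Cdkn1a-203 is that of M21 and may not be that of the deposited model.

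**Figure D4:**
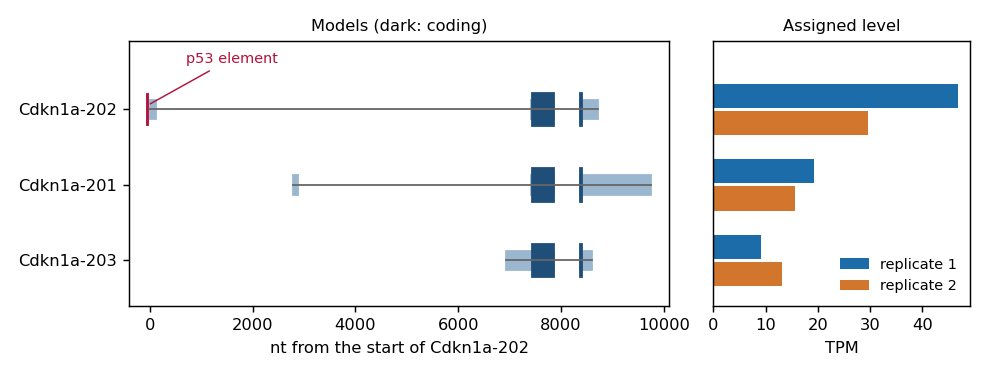
Cdkn1a transcript models from GENCODE M21 by distance in nt from the start of Cdkn1a-202, with exons in light blue, coding parts in dark blue and the p53 element as a red mark (left), and the TPM assigned to each in replicates 1 and 2 (right). Cdkn1a-202 has 46.9 and 29.7 TPM, and Cdkn1a-203, the third model, is the one with more TPM in replicate 2.

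Among inhibitors of cyclin-dependent kinases, Cdkn1a was second to Cdkn1c. Of 7 such genes, 5 were detected. Cdkn1c, the p57 inhibitor of differentiating cells and an imprinted gene, had 487 and 546 TPM in replicates 1 and 2 and exceeded Cdkn1a by 2.94 ± 0.37 on the log2(TPM + 1) scale. Cdkn1b, the p27 inhibitor, was 2.2 ± 0.14 below Cdkn1a at a mean of 13.7 TPM, and Cdkn2d was at 45.6 ± 0.28 TPM. Cdkn2a, which encodes an inhibitor of Mdm2 as well as one of cyclin-dependent kinases, had 0 counts and 1 count; a count of 0 allows up to 3 counts. Cdkn2b, also not detected, had 1.48 and 0.85 TPM.

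The sestrins, which restrain mTORC1 growth signalling through GATOR2 and guard against oxidative stress, were all expressed. Sesn1 (ENSMUSG00000038332.8, chr10:41809935-41908424, plus strand) had 28.7 and 27.8 TPM in replicates 1 and 2, from 1827 and 1907 counts. Sesn2 (ENSMUSG00000028893.8, chr4:132492032-132510501, minus strand), a sensor of leucine, had 16.7 and 15.7 TPM, from 1378 and 1401 counts. Sesn1 was the higher in both libraries, and log2(TPM + 1) differed by 0.77 ± 0.021, beyond the limit of 0.37. Sesn3, a sestrin driven by FoxO factors, was 0.83 ± 0.035 below Sesn1 at a mean of 15.5 TPM. All 13 genes of the sestrin, GATOR2 and mTORC1 list were detected, with a median of 20.3 ± 0.16 TPM and none beyond replicate error, led by Sec13 at 218 ± 5.08, Seh1l at 78.5 ± 3.68 and Nprl2 at 37.1 ± 1.67 TPM. Sec13 and Seh1l also serve in the nuclear pore, and Nprl2 belongs to GATOR1, the complex that GATOR2 restrains. A gene annotated as antisense, Gm12981, overlaps Sesn2 on the same strand in M21 and had 4 and 14 counts.

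Most Sesn1 transcripts were assigned to the model with the downstream start. Sesn1-201 held 83.3% and 81.7% of the transcripts in replicates 1 and 2, and Sesn1-202, from a start 77504 nt upstream in M21, held 16.7% and 18.3%, or 4.79 and 5.09 TPM from 360 and 412 counts. The shares differed by less than replicate error. The 2 proteins, of 492 and 551 residues, share their last 459 residues and differ in 33 and 92 residues at the start. The deposited Sesn1-202 is 639 nt shorter than the M21 model, which is the distance by which M21 extends upstream of the RefSeq start. The first 60 coding bases are shown because the proteins differ there, from chr10:41887494-41887553 for Sesn1-201 and chr10:41811022-41811081 for Sesn1-202 (mm10, plus strand). All bases are in capitals, since both stretches lie within the parts that the forms do not share.
Sesn1-201 coding start: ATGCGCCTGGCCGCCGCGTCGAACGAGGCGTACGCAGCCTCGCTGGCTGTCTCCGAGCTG
Sesn1-202 coding start: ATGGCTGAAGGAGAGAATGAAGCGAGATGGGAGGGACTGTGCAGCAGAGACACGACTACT

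Zmat3 (ENSMUSG00000027663.8, chr3:32334792-32366014, minus strand), an RNA-binding zinc finger protein that regulates splicing and RNA stability, had 3.18 and 3.77 TPM in replicates 1 and 2, from 493 and 652 counts. The log2 ratio of 0.25 was within the limit of 0.79, while the ratio of counts per total, 1.22 with an exact Clopper-Pearson 95% interval of 1.08 to 1.37, was beyond counting error. Zmat3-201 held 55.7% and 71.5%, and Zmat3-203, which encodes the same 290 residues, held 18.1% and 0%. Their sum was 73.8% and 71.5%. Zmat3-204, the retained-intron model that holds the element with 0 mismatches, had 17.5% and 28.6% of the transcripts, or 10.3% and 16.2% of the gene's counts (50.6 and 105). Of its family, Zmat5 at 58.6 ± 0.73, Zmat2 at 49.2 ± 0.14 and Zmat1 at 4.92 ± 0.38 TPM stood above it, and Zmat4 was not detected at 0.97 and 0.82 TPM. Log2(TPM + 1) of Zmat2 exceeded that of Zmat3 by 3.49 ± 0.14, beyond replicate error.

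Eda2r (ENSMUSG00000034457.6, chrX:97333840-97377216, minus strand), a receptor of the tumour necrosis factor family for one form of ectodysplasin, was the lowest of the detected genes at 1.17 and 1.26 TPM in replicates 1 and 2, from 87 and 108 counts. Its ligand gene Eda averaged 1.43 TPM, 0.13 ± 0.029 above Eda2r on the log2(TPM + 1) scale, and the related receptor Edar had 0.3 and 0.18 TPM, 0.84 ± 0.14 below. Neither difference passed the limit of 0.92. The added 1 compresses the difference from Edar at these low levels, so this outcome does not show that Edar and Eda2r were alike. Of 8 genes of the ectodysplasin axis, 7 were detected, with Edar the exception, and the adaptors Traf1 and Traf6 and the receptor Tnfrsf19 led at 18.6 ± 1.11, 8.87 ± 0.071 and 9.76 ± 0.81 TPM. Eda2r-201 held 48.9% and 55.3%, and Eda2r-202, which also encodes 297 residues, 20.4% and 0%. The retained-intron models Eda2r-203 and Eda2r-204 held 19.5% and 27.4%, and 11.2% and 17.3%. By reads, both together held 15.7% and 20.9% of Eda2r counts.

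Ordered by mean TPM, the genes ran Trp53, Cdkn1a, Mdm2, Sesn1, Mdm4, Sesn2, Zmat3, Eda2r, Trp63 and Trp73. Of the 9 neighbouring pairs, 6 differed beyond replicate error. Sesn1 and Mdm4 differed by 0.1 ± 0.026 on the log2(TPM + 1) scale, Eda2r and Trp63 by 0.14 ± 0.04 and Trp63 and Trp73 by 0.72 ± 0.13, and these 3 did not pass. The narrowest step that passed was Mdm2 over Sesn1, at 0.47 ± 0.069. These levels add up all transcript models of a gene, non-coding ones included. Over coding models alone, Mdm2 had 32.09 and 31.15 TPM in replicates 1 and 2, and Sesn1 28.73 and 27.75 TPM. Mdm4 had 16.03 and 12.98 TPM by coding models, below Sesn2 at 16.67 and 15.74 TPM. The order thus depends on the non-coding models, and the limit was not applied to coding models alone. Of the 16 gene pairs set beside each other, 13 passed. With 0.1 added to TPM in place of 1, 7 neighbouring pairs and 15 of the 16 differed. The share of all gene pairs that would pass this rule was not computed. The 16 pairs were also chosen with earlier results of these data known. These counts are therefore no result about the genes. All 7 detected genes with more than 1 annotated transcript had the same leading transcript in both libraries, against 91.6% of all such detected genes. Trp63 and Trp73, which were not detected, did not, so that the count over all 9 was 7. By the posterior mean this count was 6, because Trp53-201 led Trp53 in replicate 1 and Trp53-203 led it in replicate 2.

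The wider set of p53 targets was expressed broadly in the kidney. Of 54 further targets, 51 were detected, against 62.3% of all protein-coding genes. Their median was 14 ± 0.14 TPM (SD, n = 2), and 14.6 TPM over the 51 detected, against 19.5 TPM over detected protein-coding genes. Of the 54, 28 were higher in replicate 2 and 26 in replicate 1, and 2 of the 51 detected differed beyond replicate error, which is near or below the 5.01% of all detected genes and no result about the targets. They were Gadd45a, a stress sensor, at 33.6 and 26.6 TPM in replicates 1 and 2, and Cop1, a ubiquitin ligase for p53, at 37.4 and 21.6 TPM. The 3 not detected were Trp53cor1, the long non-coding RNA known as lincRNA-p21, at 0.27 and 0.2 TPM, the stress cytokine Gdf15 at 0.38 and 0.63 TPM and the inflammatory caspase Casp1 at 0.96 and 1.08 TPM.

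Cell cycle targets had the highest median of the 5 target lists, at 26.3 ± 0.018 TPM with 11 of 12 detected. Plk2, a kinase of centriole duplication, led at 66.8 ± 1.21 TPM, followed by Ccng2 at 52.8 ± 1.51 and Psrc1, a spindle protein, at 40.2 ± 0.35 TPM. Ccng1, a cyclin that acts with Mdm2 and carries the element shown above, was 1 ± 0.13 below Cdkn1a on the log2(TPM + 1) scale at a mean of 32.8 TPM. Cell death targets were lower, with 13 of 14 detected and a median of 9.85 ± 0.43 TPM. Bax, which permeabilises mitochondria, led them at 141 ± 3.22 TPM, close to Trp53, followed by Ei24 at 94.7 ± 0.49 and Phlda3, a repressor of Akt signalling, at 67.5 ± 3.3 TPM. Bbc3, the BH3-only protein PUMA, averaged 10.1 TPM, and Bax exceeded it by 3.68 ± 0.034 on the log2(TPM + 1) scale.

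All 9 targets for DNA repair and nucleotides were detected, with a median of 13.5 ± 0.42 TPM. Xpc, which recognises damage for nucleotide excision repair, was at 20.7 ± 0.071 TPM, and Fancc, of the Fanconi anaemia pathway, at 15.8 ± 0.12 TPM. Targets of metabolism and secretion had the lowest median, 5.15 ± 0.27 TPM, with 11 of 12 detected. Rps27l, a ribosomal protein that binds Mdm2 and the most abundant target at 624 ± 70.2 TPM, stood in this list and in that of feedback genes, and its promoter holds the element shown above. Sat1, a polyamine enzyme, followed at 145 ± 2.88 TPM, and Abhd4, a lipase, at 49.9 ± 2.86 TPM. All 8 feedback targets were detected, with a median of 20.2 ± 0.89 TPM, and Rchy1, a ubiquitin ligase for p53, was at 56.6 ± 0.52 TPM.

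**Figure D5:**
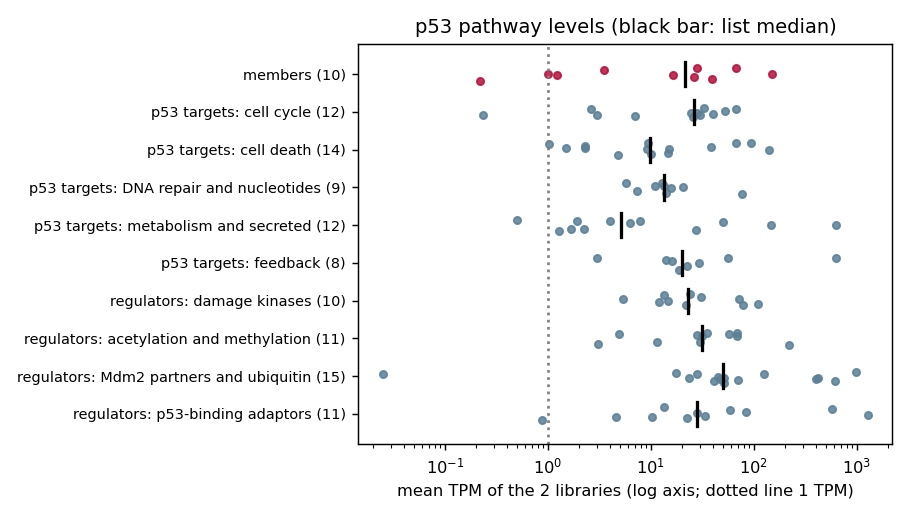
Mean TPM over both libraries (log axis) of each gene in the 10-gene set (red) and in the lists of further p53 targets and p53 regulators (blue), with the list median as a black bar, 1 TPM as a dotted line and the number of genes in parentheses. Among target lists the median is highest for the cell cycle (26.3 TPM) and lowest for metabolism and secreted factors (5.15 TPM).

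Of 47 genes that act on p53, 45 were detected, against 62.3% of all protein-coding genes, with a median of 33.2 ± 0.38 TPM, and 35.3 TPM over the 45 detected, against 19.5 TPM over detected protein-coding genes. Of the 45, 2 differed beyond replicate error (Daxx and Hmgb1), against 5.01% of all detected genes. All 10 damage and stress kinases were detected (median 23 ± 0.5 TPM), led by the casein kinases Csnk1d at 110 ± 5.1, Csnk2a1 at 78.8 ± 5.07 and Csnk1e at 71.1 ± 1.35 TPM. All 11 genes of acetylation and methylation were detected (median 31.1 ± 0.73 TPM), led by the deacetylase Hdac1 at 220 ± 4.09 TPM and the methyltransferases Kmt5c at 69.2 ± 6 and Smyd2 at 68.7 ± 0.14 TPM. Of 15 Mdm2 partners and ubiquitin genes, 14 were detected (median 50.5 ± 0.13 TPM), Cdkn2a being the exception. Npm1, Rpl23 and Ncl, nucleolar or ribosomal proteins that bind Mdm2, led at 973 ± 86.8, 605 ± 49.7 and 417 ± 14.9 TPM. Daxx, which joins Mdm2 in a complex, differed beyond error at 40.2 and 48.7 TPM in replicates 1 and 2. Of 11 genes listed under p53-binding adaptors, not all of which are adaptors, 10 were detected (median 28.3 ± 2.74 TPM). Hmgb1, Ybx1 at 569 ± 18.4 and Prmt5, an enzyme, at 83.3 ± 0.89 TPM led them. Hmgb1, a DNA-bending protein, differed beyond error at 1415 and 1151 TPM, and Nol3, an inhibitor of cell death, was not detected at 0.97 and 0.77 TPM.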

How the data were processed

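Total RNA from 2 pools of embryonic kidney was analysed. Per the labels, RNA was extracted with mirVana, fragments over 200 nt were kept and spike-ins were added, and a manual of a low-input SMARTer kit is listed. Per the text deposited beside the tables, reads were aligned to mm10 and quantified with GENCODE M4. Which aligner and quantifier were used, and whether strand was, is not given in the sources used here. Overlapping genes are therefore uncertain. Expected counts, as deposited, estimate the reads of a gene or transcript. The TPM values, scaled by length to a fixed sum per library, and the FPKM values, fragments per length and library size, were computed by the authors. The deposited percent is each transcript's part of its gene's TPM, and posterior means are a further estimate in the same tables, per the file headers.

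Computed here were detection at 1 TPM in both libraries, replicate error in bins of mean TPM (edges 1, 3, 10, 30 and 100), differences of log2(TPM + 1), and exact Clopper-Pearson 95% intervals of count ratios, which cover counting error only. Names, coordinates, transcript classes and translated lengths came from GENCODE M21 on mm10 (GRCm38), which 42462 of 43346 genes (98%) matched by identifier. Transcript sequences came from M21 and promoters from RefSeq (GRCm38.p6). Depth was 36244861 and 39415002 expected counts. Expected counts were rounded to whole numbers for the TMM factors of edgeR 4.0.16 and the size factors of DESeq2 1.42.0 (R 4.3.3), used only as alternatives. Other steps used Python 3.11.15, pandas 2.3.3, numpy 2.4.6 and scipy 1.17.1. The replicate error step was tested on simulated data.

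The genes, the lists, the pairs and the rules were chosen with earlier results of these data known. Named were all 10 genes, their transcripts at 10% or more in either library, distinct starts of the p53, Mdm2 and Mdm4 proteins, both genes of each pair, and in each list the 3 highest genes, those below 1 TPM in both libraries and those beyond replicate error. The value of 1 gene under this rule is not reported here. Casp1, Cdkn2b, Krt6a, Upk2, Gtse1, overlapping genes and pseudogenes, Mdm2-206, Mdm2-207, Mdm2-209 and Mdm4-203, and the elements in introns, were chosen after their values or sequences were seen. The alternatives were other thresholds, pseudocounts, percentiles and units, rescaling over nuclear genes, posterior means and each library alone. The labels call the libraries biological replicates.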

Additional observations from a re-analysis of the deposited data

How the results depend on the processing

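Of the summary results, counts of detected genes, of pairs and of leading transcripts kept within 1.5 times of their reported value under the other settings tried, with 2 exceptions. At the 99th percentile of replicate error, 3 neighbouring genes were called different instead of 6. At a required ratio of 1.5, 0 of the 10 genes differed between libraries instead of 1 (Cdkn1a, which was also the gene called with FPKM, TMM factors, DESeq2 size factors, posterior means and no filter). The medians of the lists moved by more than their SD between libraries. That of the further p53 targets, 14 TPM, was 15.5 when rescaled over nuclear genes, 9.39 in FPKM and 14.6 over detected genes only, and that of the regulators, 33.2 TPM, was 36.8, 22.4 and 35.3 in the same settings. These shifts follow from the unit or from leaving out low genes. Single genes moved with the unit in the same way. By the posterior mean, Trp73 was at 0.525 TPM instead of 0.22, and the leading Trp53 transcript at 42.1% instead of 79.8%. No paired analysis was possible because there is 1 group.

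Depth limits Trp63, Trp73 and Eda2r most, with 23 to 108 counts per library, and their transcript shares are not resolved. With 2 pools of 1 group, SDs rest on 2 values and no test between conditions exists. TPM is relative, so levels per cell are not known. The annotation used for models is later than that of the tables, and the lengths of Cdkn1a, Sesn1 and Mdm2 transcripts differ between them.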
